A study of Mus musculus with 6 samples.

Results

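The Notch genes examined are 10 named members of the pathway, in 3 classes: the receptors Notch1, Notch2, Notch3 and Notch4, the ligands Jag1 and Jag2 with the receptor-modifying enzyme Lfng, and the target genes Hes1, Hey1 and Heyl. They were taken by gene name from the deposited table, which held all 10 of them among 54532 genes. RNA had been sequenced from mesenchymal stromal cells (MSCs) of mouse compact bone, grown out of collagenase-treated femur and tibia chips and sorted on the fluorescent reporter. The Zeb1Prx1 group comprised 3 untreated libraries of the genotype Prx1-Cre+; ROSA-YFP; Zeb1fl/fl, and the WT group 3 untreated libraries of the genotype Prx1-Cre+; ROSA-YFP; Zeb1wt/wt. Both groups therefore carried the Cre driver and the reporter, and differed by the Zeb1 alleles that Cre recombines in the Prx1 lineage of limb mesenchyme. The age and sex of the mice are not given in the labels used here, nor is it stated whether replicates were separate mice or cultures, so a p-value measures the spread between these samples only, which may be technical.

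Notch receptors are single-pass membrane proteins that are activated by ligands on a neighbouring cell. Binding exposes the receptor to cleavage first by ADAM proteases and then by gamma-secretase, and the freed intracellular domain joins the DNA-binding protein RBPJ to switch on target genes such as those of the Hes and Hey families. Fringe enzymes, of which Lfng is a member, add sugars to the receptor that alter its response to Jagged and Delta ligands. In the skeleton, Notch signalling is known to keep progenitors undifferentiated and to act in both cartilage and bone formation.

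The table gives FPKM, that is fragments scaled to gene length and library size, so levels can be set side by side between genes. Each library held 14724357 to 18354894 fragments assigned to genes. Zeb1, the targeted gene, had 1.92, 1.59 and 2.84 FPKM in the 3 Zeb1Prx1 libraries, against 6.61, 10.3 and 7.12 FPKM in the 3 WT libraries, so the groups did not overlap. Of 15 skeletal stromal markers, 14 reached 1 FPKM in at least 3 libraries, as did 20 of 20 macrophage markers. The macrophage list, mostly through Lyz2, summed to more FPKM than the stromal list in each library. In Zeb1Prx1 the sums were 10839.5 to 21956 against 3137 to 6132 FPKM, and in WT 13183 to 15994 against 2368 to 3653 FPKM. The Notch levels below therefore cannot be assigned to stromal cells alone. Replicate 2 of Zeb1Prx1 stood apart in its levels by gene length, as detailed further on, and log2 changes that move by over 1.5 times without it are also given without it.

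Levels were compared by limma on log2(FPKM + 1) over the 12534 genes with at least 1 FPKM in at least 3 of the 6 libraries. Of the 10 Notch genes, 6 met this filter (Notch1, Notch2, Notch3, Jag1, Lfng and Hes1) and 4 did not (Notch4, Jag2, Hey1 and Heyl). None of the 6 passed an adjusted p of 0.05, and limma called 0% of all tested genes at that threshold. At an unadjusted p under 0.05, 4 of the 6 (Notch1, Notch3, Jag1 and Lfng) were lower in Zeb1Prx1, against 6.98% of all tested genes, and 0 were higher, against 8.15%. In 3 of the 6 (Notch1, Jag1 and Lfng) each Zeb1Prx1 library lay below each WT library, which held for 11.8% of all tested genes, and in 0 did each lie above, which held for 12.6%. The median log2 change, Zeb1Prx1 minus WT, was -0.58 for the 6 and 0.02 for all tested genes. These counts leave out the 4 members under the filter, and the levels of all 10 are given below.

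**Figure D1:**
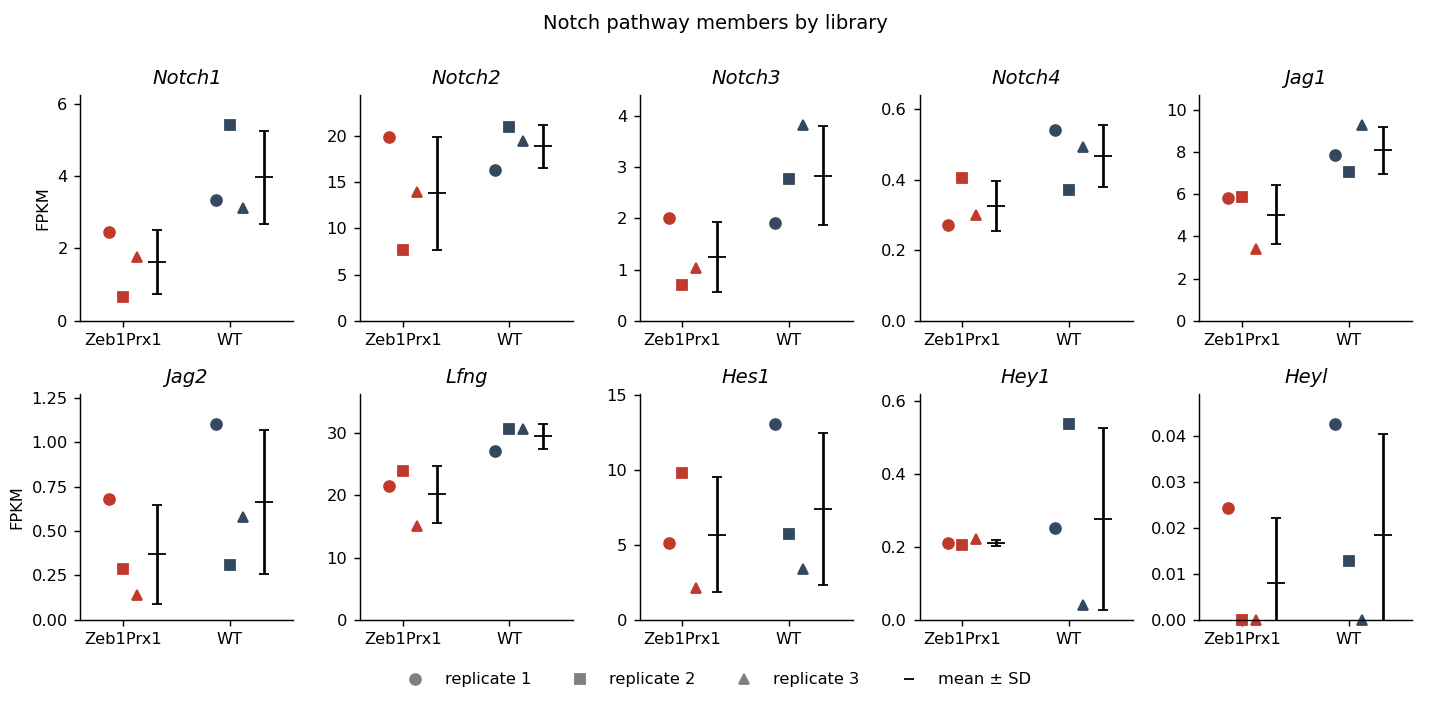
FPKM of the 10 Notch genes in each library, with Zeb1Prx1 at the left and WT at the right of each panel, symbols for the replicate number and bars for the mean and SD (n = 3 per genotype); each axis starts at 0 and has its own scale. Notch1, Jag1 and Lfng show no overlap between genotypes, while Notch2 ranges from 7.62 to 19.9 FPKM in Zeb1Prx1 and from 16.4 to 21.0 FPKM in WT.

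Promoter sequence from RefSeq (build GRCm38.p6) was matched for 7 of the 10 genes. Hes1, Hey1 and Heyl had no match. The 250 bases before the RefSeq start of each gene were searched on both strands for GTGGGAA, the core bound by RBPJ, and for CAGGTG and CAGGTA, the E2-boxes bound by ZEB proteins. Shown here are the windows that hold a match, and that of Notch1, which has none and belongs to the gene with the smallest p among the members. Capitals mark the matches, and each sequence runs 5′ to 3′ on the strand of the gene. Those of Jag1 and Lfng stop where the gene model of the deposited table begins, 124 and 21 bases short of the RefSeq start.
Lfng: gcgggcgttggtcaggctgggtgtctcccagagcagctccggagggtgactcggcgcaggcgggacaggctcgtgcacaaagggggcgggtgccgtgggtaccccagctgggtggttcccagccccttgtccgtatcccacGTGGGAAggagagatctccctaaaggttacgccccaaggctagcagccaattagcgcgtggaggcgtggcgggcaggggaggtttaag
Jag1: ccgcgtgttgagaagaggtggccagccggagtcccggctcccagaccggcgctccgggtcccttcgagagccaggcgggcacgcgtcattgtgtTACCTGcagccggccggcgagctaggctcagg
Notch3: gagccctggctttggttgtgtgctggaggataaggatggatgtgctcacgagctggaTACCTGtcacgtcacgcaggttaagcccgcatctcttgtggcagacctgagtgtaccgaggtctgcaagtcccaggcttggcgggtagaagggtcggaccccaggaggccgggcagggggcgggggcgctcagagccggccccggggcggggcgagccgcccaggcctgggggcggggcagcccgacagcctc
Notch1: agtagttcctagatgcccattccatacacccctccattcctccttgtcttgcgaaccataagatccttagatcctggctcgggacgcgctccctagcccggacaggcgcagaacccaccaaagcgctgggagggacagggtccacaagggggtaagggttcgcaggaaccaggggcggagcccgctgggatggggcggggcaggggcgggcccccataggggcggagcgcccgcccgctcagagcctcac
These windows lie at chr5:140607091-140607319 (Lfng, plus strand), chr2:137116645-137116770 (Jag1, minus strand), chr17:32166891-32167140 (Notch3, minus strand) and chr2:26503823-26504072 (Notch1, minus strand).

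The Lfng window held 1 RBPJ core, 109 to 103 bases before the start, and none of the other 6 windows held this motif. It occurred in 5.43% of the 32536 distinct windows of the same length in the promoter table. An E2-box, read as TACCTG on the strand shown, stood 156 to 151 bases before the start of Jag1 and 193 to 188 bases before that of Notch3. The other 5 windows had none, and 25.2% of all windows held at least 1 of the E2-boxes. The 3 motif strings do not overlap in these windows. The Notch1 window precedes a RefSeq start that is also a GENCODE transcript start, 12841 bases inside the deposited gene model, whose outermost start lies further upstream.

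Among the receptors, Notch2 was the most abundant in each of the 6 libraries and Notch4 the least abundant, with Notch1 and Notch3 between. Notch2 (ENSMUSG00000027878, mm10 chromosome 3, 98013527 to 98150361) had 19.9, 7.62 and 13.9 FPKM in Zeb1Prx1, against 16.4, 21.0 and 19.4 FPKM in WT. The groups overlapped, since replicate 1 of Zeb1Prx1 was above WT replicates 1 and 3 while replicate 2 had the lowest level. The mean was 13.8 ± 6.14 FPKM in Zeb1Prx1 and 18.9 ± 2.35 FPKM in WT (SD, n = 3 each), a log2 change of -0.51 (SE 0.32, 95% interval -1.26 to 0.24; limma adjusted p = 0.433). Without Zeb1Prx1 replicate 2, the log2 change was -0.17, from a mean of 16.9 FPKM in Zeb1Prx1.

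Notch1 (ENSMUSG00000026923, chromosome 2, 26457903 to 26516663), the best studied receptor of the family, had 2.44, 0.667 and 1.76 FPKM in Zeb1Prx1, against 3.33, 5.43 and 3.13 FPKM in WT. Each Zeb1Prx1 library lay below each WT library, and replicate 2 was the lowest. The mean was 1.62 ± 0.897 FPKM in Zeb1Prx1 and 3.96 ± 1.27 FPKM in WT, 0.410-fold, from 171 to 559 and 684 to 1188 fragments per library. The log2 change was -0.95 (SE 0.31, 95% interval -1.68 to -0.22; limma adjusted p = 0.283). It was -0.66 without Zeb1Prx1 replicate 2. Its unadjusted limma p was 0.0177 with all libraries and 0.0587 without WT replicate 2.

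Notch3 (ENSMUSG00000038146, chromosome 17, 32120820 to 32166880), known from the mural cells of vessels, had 2.004, 0.690 and 1.03 FPKM in Zeb1Prx1, against 1.91, 2.77 and 3.84 FPKM in WT. Replicate 1 of Zeb1Prx1 was level with WT replicate 1, and the other Zeb1Prx1 libraries were lower than each WT library. The log2 change was -0.79 (SE 0.28, 95% interval -1.45 to -0.13; limma adjusted p = 0.298), from means of 1.24 ± 0.683 FPKM in Zeb1Prx1 and 2.84 ± 0.966 FPKM in WT. Without Zeb1Prx1 replicate 2 it was -0.61, with an unadjusted limma p of 0.0787. Notch4 (ENSMUSG00000015468, chromosome 17, 34564268 to 34588503), typical of endothelium, had 0.270, 0.406 and 0.301 FPKM in Zeb1Prx1, against 0.542, 0.371 and 0.493 FPKM in WT. These levels rest on 35 to 59 fragments per library in Zeb1Prx1 and 46 to 80 in WT, and the groups overlapped.

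The order of the receptors by mean FPKM was Notch2, Notch1, Notch3 and Notch4 in both genotypes. Notch1 and Notch3 did not differ beyond their spread: their means lay within 1 SD of each other in Zeb1Prx1, and their libraries overlapped in WT. The distances to Notch2 above and Notch4 below exceeded the spread. The receptor FPKM summed to 24.6, 9.38 and 17.0 in Zeb1Prx1, against 22.2, 29.5 and 26.9 in WT, so the groups overlapped in replicate 1.

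Shares within a library do not move with its scaling. They can move with the trend by gene length described further on, and they were not recomputed with that trend removed. Notch2 made up 80.8%, 81.2% and 81.9% of the receptor FPKM in Zeb1Prx1, against 73.9%, 71.0% and 72.3% in WT. This share was higher in each Zeb1Prx1 library, with means of 81.3% ± 0.516 in Zeb1Prx1 and 72.4% ± 1.46 in WT. Notch1 made up 9.93%, 7.10% and 10.3% in Zeb1Prx1, against 15.03%, 18.4% and 11.6% in WT, and Notch3 8.14%, 7.35% and 6.02% in Zeb1Prx1, against 8.62%, 9.36% and 14.3% in WT. Both shares were lower in each Zeb1Prx1 library. The exact two-sided permutation p was 0.1 for each of these 3 shares, the smallest that 3 libraries against 3 can give. It was 0.18 after Benjamini-Hochberg adjustment over the 9 shares tested. Shares of a set are parts of the same sum, so they are tied to each other and are not separate results. The Jag1 and Jag2 shares, both among the 9, mirror each other. The share of Notch4 overlapped (1.10%, 4.33% and 1.77% in Zeb1Prx1, against 2.45%, 1.26% and 1.83% in WT).

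**Figure D2:**
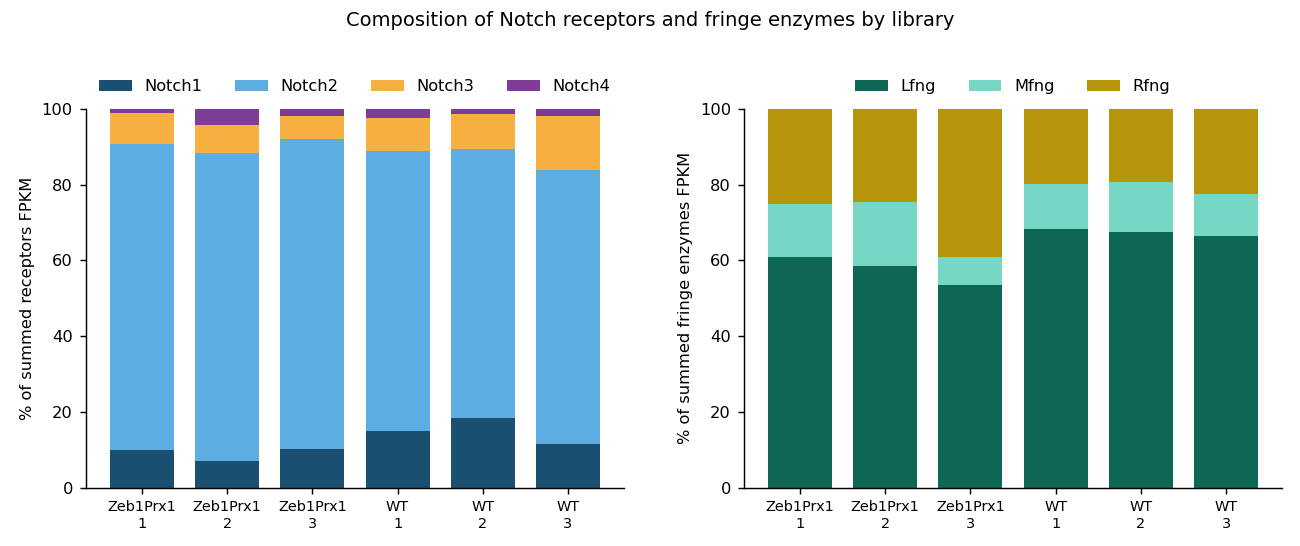
Stacked bars of the percentage of summed FPKM in each library that belongs to each Notch receptor (left) and each fringe enzyme (right), with the Zeb1Prx1 libraries left of the WT libraries. The Notch2 share is 80.8% to 81.9% in Zeb1Prx1 and 71.0% to 73.9% in WT, and the Lfng share is 53.7% to 60.9% in Zeb1Prx1 and 66.4% to 68.4% in WT.

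Of the ligands, Jag1 was the main one in all 6 libraries. Jag1 (ENSMUSG00000027276, chromosome 2, 137081456 to 137116644), a membrane ligand that limb mesenchyme and osteoblasts express, had 5.80, 5.87 and 3.40 FPKM in Zeb1Prx1, against 7.86, 7.08 and 9.31 FPKM in WT. The groups did not overlap, and replicate 3 of Zeb1Prx1 was the lowest library. The mean was 5.02 ± 1.40 FPKM in Zeb1Prx1 and 8.08 ± 1.13 FPKM in WT, 0.622-fold, with a log2 change of -0.61 (SE 0.21, 95% interval -1.12 to -0.11; limma adjusted p = 0.296). Without Zeb1Prx1 replicate 3 the log2 change was -0.40, and its unadjusted limma p, 0.0235 with all libraries, was 0.0614. This p was also above 0.05 without WT replicate 1 (0.0517) or WT replicate 3 (0.0820).

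Jag2 (ENSMUSG00000002799, chromosome 12, 112907819 to 112929776), the related ligand, had 0.679, 0.287 and 0.141 FPKM in Zeb1Prx1, against 1.11, 0.308 and 0.580 FPKM in WT, from 15 to 76 and 33 to 141 fragments. The groups overlapped, and replicate 1 was the highest library of either genotype. Jag1 made up 89.5% to 96.0% of the FPKM of both Jagged genes in Zeb1Prx1 and 87.7% to 95.8% in WT. This share did not separate the genotypes (exact two-sided permutation p = 0.6).

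Lfng was the most abundant of the 10 genes by mean FPKM in both genotypes. Lfng (ENSMUSG00000029570, chromosome 5, 140607320 to 140615545), the lunatic fringe glycosyltransferase, had 21.6, 24.0 and 15.1 FPKM in Zeb1Prx1, against 27.1, 30.6 and 30.7 FPKM in WT. Each Zeb1Prx1 library was below each WT library, and replicate 3 was the lowest. The mean was 20.2 ± 4.58 FPKM in Zeb1Prx1 and 29.5 ± 2.07 FPKM in WT, 0.686-fold, and the log2 change was -0.54 (SE 0.20, 95% interval -1.01 to -0.08; limma adjusted p = 0.298). Without Zeb1Prx1 replicate 3 the log2 change was -0.36, and its unadjusted limma p, 0.0269 with all libraries, was 0.0772. This p was also above 0.05 without WT replicate 2 (0.0781) or WT replicate 3 (0.0777). With libraries weighted by their fit, the 1 alternative under which a member passed, the log2 change of Lfng was -0.81 (limma adjusted p = 0.0497, within a range up to 0.811 over all alternatives). That setting gave the most weight, 2.82, to Zeb1Prx1 replicate 3, in which Lfng was lowest, and the least, 0.226, to Zeb1Prx1 replicate 2.

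Lfng also made up a smaller part of the summed FPKM of the fringe genes (2505 bases for Lfng, 2839 for Mfng and 2489 for Rfng). It made up 60.9%, 58.6% and 53.7% of the summed fringe FPKM in Zeb1Prx1, against 68.4%, 67.5% and 66.4% in WT. The Rfng share was 25.2%, 24.6% and 39.1% in Zeb1Prx1, against 19.9%, 19.2% and 22.5% in WT. Neither share overlapped between the genotypes (exact two-sided permutation p = 0.1, adjusted 0.18, for each). The Mfng share did (13.9%, 16.7% and 7.21% in Zeb1Prx1, against 11.7%, 13.4% and 11.02% in WT). Mfng too was lowest in Zeb1Prx1 replicate 3, at 2.03 FPKM, so Lfng was not lower relative to Mfng in that library.

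The target genes did not separate the genotypes. Hes1 (ENSMUSG00000022528, chromosome 16, 30064384 to 30067796), a repressor and the most general Notch target, had 5.13, 9.81 and 2.15 FPKM in Zeb1Prx1, against 13.1, 5.72 and 3.42 FPKM in WT. Its range within each genotype was wider than the distance between the means of 5.70 ± 3.86 FPKM in Zeb1Prx1 and 7.42 ± 5.07 FPKM in WT. The log2 change was -0.33 (SE 0.55, 95% interval -1.64 to 0.97; limma adjusted p = 0.771), and the sign turned (0.12) when WT replicate 1, or else Zeb1Prx1 replicate 3, was left out. Without Zeb1Prx1 replicate 2, the log2 change of Hes1 was -0.77.

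Hey1 (ENSMUSG00000040289, chromosome 3, 8663359 to 8667256) had 11, 12 and 11 fragments in the Zeb1Prx1 libraries, against 15, 27 and 2 in the WT libraries, or 0.210, 0.204 and 0.221 FPKM against 0.251, 0.538 and 0.0399 FPKM. The WT libraries spanned the Zeb1Prx1 libraries on both sides. Heyl (ENSMUSG00000032744, chromosome 4, 123233556 to 123249875) had 2, 0 and 0 fragments in Zeb1Prx1, against 4, 1 and 0 in WT. A count of 0 allows up to 3 fragments, which equals 0.163 to 0.204 CPM of assigned fragments in these libraries, for counting error only. No difference in Heyl was detectable at this depth.

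Library by library, the lowest level of each of the 6 tested members fell in Zeb1Prx1 replicate 2 for Notch1, Notch2 and Notch3 and in Zeb1Prx1 replicate 3 for Jag1, Lfng and Hes1. Among these 6, the receptor genes and the other members thus had different lowest libraries. The receptor Notch4, under the filter, was lowest in Zeb1Prx1 replicate 1, at 0.270 FPKM. Zeb1Prx1 replicate 1 was lowest for none of the 6, and its Notch2, Notch3 and Hes1 levels lay within the WT range.

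The receptors are long genes, and levels moved with gene length between these libraries. In Zeb1Prx1 replicate 2, tested genes of at least 8000 bases had a median deviation of -0.36 from their mean over the 6 libraries, on the log2(FPKM + 1) scale, while genes of 1000 to 2000 bases had 0.48. In the other Zeb1Prx1 libraries these medians were 0.07 and -0.08 in replicate 1 and -0.05 and 0.05 in replicate 3, and in the WT libraries 0.07 to 0.16 and -0.18 to -0.10. Of the 1935 tested genes of at least 8000 bases, 78.0% had a log2 change below 0, with a median of -0.21, and in 24.3% each Zeb1Prx1 library lay below each WT library. Notch1 (14232 bases), Notch2 (10782), Notch3 (8044) and Notch4 (8061) belong to this length class. Jag1 (5827 bases) lies in the class of 4000 to 8000 bases, with a median of -0.07 and 16.01% separated downward. Lfng and Hes1 (2037 bases) lie in that of 2000 to 4000 bases, where the median was 0.12 and 5.74% were separated downward.

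**Figure D3:**
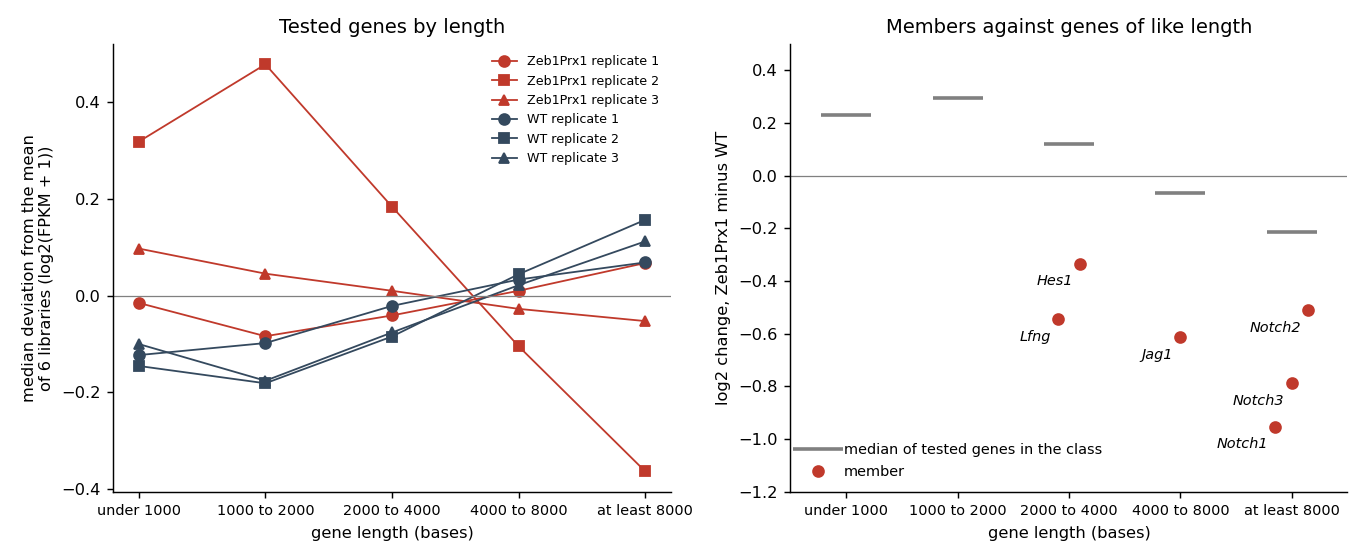
Left, median deviation of tested genes from their mean over the 6 libraries (log2(FPKM + 1)) by gene length, with 1 line per library. Right, log2 change (Zeb1Prx1 minus WT) of the 6 tested Notch genes in their length class, with the class median as a grey bar. Each of the 6 points lies below the median of its class, and Zeb1Prx1 replicate 2 shows the steepest line, reaching -0.36 for genes of at least 8000 bases.

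With the length trend of each library removed, an alternative chosen after seeing the data, the 4 members with an unadjusted p under 0.05 kept one. The log2 change was -0.66 for Notch1 (limma adjusted p = 0.29), -0.63 for Notch3 (adjusted p = 0.337), -0.53 for Jag1 (adjusted p = 0.35) and -0.70 for Lfng (adjusted p = 0.274). For Notch2 it was -0.28, against -0.51 as deposited, and for Hes1 -0.54 against -0.33. The adjusted p of the 6 members ranged from 0.274 to 0.617 in this fit, and none passed.

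**Figure D4:**
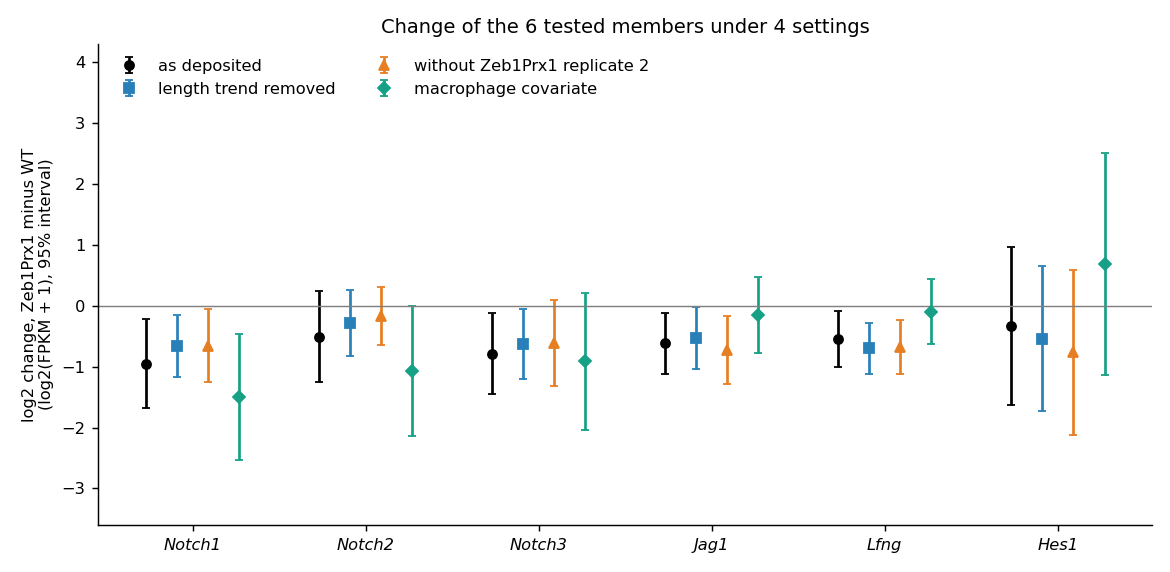
Log2 change (Zeb1Prx1 minus WT, log2(FPKM + 1)) of the 6 tested members with 95% intervals from limma, as deposited, with the length trend of each library removed, without Zeb1Prx1 replicate 2, and with the mean of the macrophage markers as a covariate. Notch1 stays between -1.502 and -0.66 over these 4 fits, while Lfng and Jag1 move to -0.10 and -0.16 with the macrophage covariate. That covariate separates the genotypes, so its part and that of genotype cannot be told apart.

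Markers of other cell types moved with part of these results. In bulk samples, fewer cells of a type and less RNA per cell cannot be told apart. The 20 macrophage markers, of cells that also carry Notch1 and Notch2, summed to 10839.5, 21956 and 12787 FPKM in Zeb1Prx1, against 13183, 15994 and 15155 FPKM in WT. Of the 20, 7 were separated downward in Zeb1Prx1, 0 upward and 13 overlapped. Most of the sum was Lyz2, lysozyme, with 7034, 16368 and 9156 FPKM in Zeb1Prx1, against 8118, 10490.4 and 10017 FPKM in WT. The mean log2(FPKM + 1) over the list, which weighs its genes equally, was 6.76, 7.05 and 6.51 in Zeb1Prx1, against 7.12, 7.15 and 7.21 in WT, so this mean separated the genotypes although the sum did not. With it as a covariate, the log2 change was -1.502 for Notch1, -1.07 for Notch2 and -0.91 for Notch3, and -0.16 for Jag1, -0.10 for Lfng and 0.69 for Hes1 (limma adjusted p between 0.228 and 0.811). Because the covariate itself separated the genotypes, this fit cannot tell its part from that of genotype. The 15 skeletal stromal markers summed to 5352, 3137 and 6132 FPKM in Zeb1Prx1, against 2368, 3653 and 3346 FPKM in WT, and 13 of them overlapped. Of 14 chondrocyte markers, 8 were separated upward in Zeb1Prx1 and 0 downward, and the list summed to 652, 201 and 2716 FPKM in Zeb1Prx1, against 33.3, 234 and 180 FPKM in WT. Zeb1Prx1 replicate 3, the lowest library for Jag1, Lfng and Hes1, had the highest of these sums, and the part of the chondrocyte markers in the Notch results was not tested. Of 12 osteoblast markers 3, and of 10 epithelial markers 5, were separated upward, and 0 of either list downward. Over all tested genes, 11.8% were separated downward and 12.6% upward. The marker counts also take in genes under the filter, which 7 of 14 chondrocyte, 9 of 12 osteoblast and 1 of 10 epithelial markers met. That epithelial marker, Krt19, overlapped, so each of the 5 separated ones lay under the filter. Of the separated chondrocyte markers, Col9a1, Snorc and Cnmd lay under the filter. Acan and Col11a2 met it only through the Zeb1Prx1 libraries, where they were high.

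Endothelial cells, in which Notch4, Jag2 and the Hey genes are typical, were low by most of their markers, of which 2 of 12 met the filter. Cdh5, the cadherin of endothelial junctions, reached at most 0.0528 FPKM in Zeb1Prx1 and 0.0520 FPKM in WT, and 3 of the 12 endothelial markers had at most 3 fragments in each library. Vwf, von Willebrand factor, was the 1 endothelial marker separated downward, with 1.48, 1.26 and 0.905 FPKM in Zeb1Prx1, against 2.22, 2.64 and 1.76 FPKM in WT. Erg, a transcription factor of endothelium that chondrocytes also express, had 0.377, 0.128 and 3.87 FPKM in Zeb1Prx1, against 0, 1.26 and 0.0752 FPKM in WT. Both were chosen for mention after their values were seen. The list summed to 19.8, 12.7 and 18.2 FPKM in Zeb1Prx1, against 28.2, 21.2 and 24.2 FPKM in WT, without an overlap. Most of it was Eng (17.1, 10.0 and 12.4 FPKM in Zeb1Prx1, against 24.7, 16.6 and 21.0 FPKM in WT), which stromal cells and macrophages also express. The part of these markers in the Notch results was not tested.

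Among the 10 pericyte and smooth muscle markers, all of which overlapped between genotypes, the most abundant was Acta2, smooth muscle actin. Acta2 had 489, 985 and 121 FPKM in Zeb1Prx1, against 988, 226 and 387 FPKM in WT. Hes1 had its highest levels in WT replicate 1 and Zeb1Prx1 replicate 2, the same 2 libraries in which Acta2 was highest, and its lowest in Zeb1Prx1 replicate 3, where Acta2 was lowest as well. The list did not move as a whole. Cnn1 was also highest in those 2 libraries, but Cspg4 ran the other way. Cspg4 had 9.06, 1.82 and 8.60 FPKM in Zeb1Prx1, against 2.70, 11.9 and 2.49 FPKM in WT. Cnn1 and Cspg4 were named after their values were seen. The part of these markers in the Hes1 levels was not tested. Rgs5, a pericyte marker, reached at most 0.288 FPKM in Zeb1Prx1 and 0.565 FPKM in WT.

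The rest of the pathway was described through 46 further genes in 6 lists, of which 33 were tested and 13 lay under the filter. None was called, 6 were lower and 4 higher at an unadjusted p under 0.05 (against 6.98% and 8.15% of all tested genes), and 10 were separated downward and 5 upward (against 11.8% and 12.6%). Of the 33, 25 had a log2 change below 0, with a median of -0.15, beside 0.02 for all tested genes. With the length trend removed, the median was -0.04, and 5 were lower and 2 higher at an unadjusted p under 0.05.

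Of 6 other ligands and ligand-like genes, 1 was tested. Dlk2, a Delta-like protein known to inhibit Notch signalling, had 4.36, 2.65 and 3.47 FPKM in Zeb1Prx1, against 0.465, 0.677 and 0.247 FPKM in WT. The groups did not overlap, the fragments numbered 101 to 148 per library in Zeb1Prx1 and 8 to 22 in WT, and the fold of mean FPKM was 7.55. This was the largest log2 change among the 33 tested pathway genes and the members, 1.61 (SE 0.21; limma adjusted p = 0.229), and with library weights it passed (limma adjusted p = 0.0328, the lowest of a range up to 0.54 over the alternatives). Each WT library lay under 1 FPKM, so Dlk2 met the filter only through the Zeb1Prx1 libraries, where it was high. Its rank and its pass among tested genes depend on that selection and lend no support of their own. Dlk1, its paralogue, overlapped at 0.242, 0.137 and 0.0693 FPKM in Zeb1Prx1, against 0.550, 0.161 and 1.02 FPKM in WT, and each of the Delta ligand genes Dll1, Dll3 and Dll4, named after their values were seen, stayed under the filter.

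**Figure D5:**
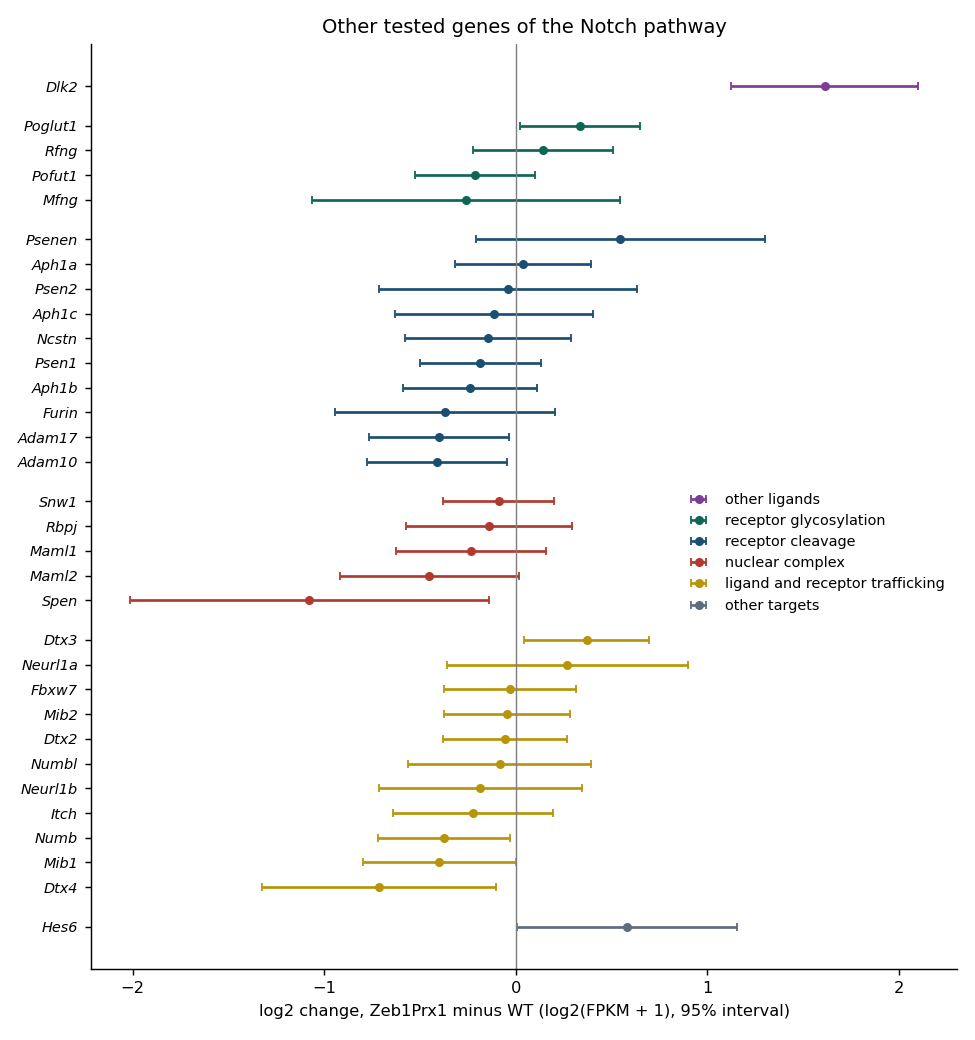
Log2 change (Zeb1Prx1 minus WT, log2(FPKM + 1)) with 95% intervals from limma for 32 of the other tested pathway genes, coloured by list. Dlk2 stands at 1.61, and 24 of the 32 points lie below 0.

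Receptor glycosylation and cleavage held 14 tested genes in both lists, and none was called. Poglut1, which adds glucose to Notch, had 14.1, 15.8 and 15.9 FPKM in Zeb1Prx1, against 11.3, 11.3 and 12.9 FPKM in WT, a log2 change of 0.34 (limma adjusted p = 0.317). Rfng had 8.93, 10.1 and 11.02 FPKM in Zeb1Prx1, against 7.88, 8.70 and 10.4 FPKM in WT, and overlapped. Adam10, the main protease of the first cut, had 31.0, 24.2 and 28.7 FPKM in Zeb1Prx1, against 37.4, 39.9 and 34.8 FPKM in WT. Each Zeb1Prx1 library was lower (log2 change -0.41, SE 0.15; limma adjusted p = 0.302). Of gamma-secretase, Ncstn overlapped with 56.7, 42.5 and 59.9 FPKM in Zeb1Prx1, against 56.4, 64.1 and 54.5 FPKM in WT, a log2 change of -0.15, which was 0.0013 without Zeb1Prx1 replicate 2. Psenen, its short subunit gene of 1275 bases, had 40.2, 97.5 and 48.4 FPKM in Zeb1Prx1, against 39.6, 39.4 and 38.3 FPKM in WT. Replicate 2, in which short genes were high, held the highest value, and without it the log2 change of Psenen was 0.17, beside 0.55 with it.

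In the nuclear list, 6 of 7 genes were tested and all 6 had a log2 change below 0, with 0 called. Rbpj, the DNA-binding partner of all Notch receptors, overlapped with 22.7, 19.4 and 27.96 FPKM in Zeb1Prx1, against 29.2, 22.5 and 25.4 FPKM in WT (log2 change -0.14, 95% interval -0.57 to 0.30). It was -0.019 without Zeb1Prx1 replicate 2 and 0.13 with the length trend removed.

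Among 12 genes of ligand and receptor trafficking, 11 were tested and 0 called. Mib1, the ubiquitin ligase that lets ligands be endocytosed, had 14.3, 9.61 and 11.1 FPKM in Zeb1Prx1, against 15.7, 16.2 and 14.6 FPKM in WT, without overlap (log2 change -0.40; limma adjusted p = 0.33). Mib1 is 10369 bases long, and its log2 change was -0.18 with the length trend removed and -0.28 without Zeb1Prx1 replicate 2. Dtx3 had 18.8, 20.9 and 21.0 FPKM in Zeb1Prx1, against 14.3, 14.99 and 17.1 FPKM in WT, and Dtx4 6.97, 5.50 and 3.50 FPKM in Zeb1Prx1, against 10.2, 10.7 and 6.85 FPKM in WT. Both belong to the Deltex family of ubiquitin ligases, and their log2 changes were 0.37 and -0.72 (limma adjusted p = 0.302 and 0.299). With the length trend removed, that of Dtx3 was 0.22. The groups overlapped for Dtx4 and not for Dtx3.

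Of the 7 other genes of the Hes and Hey families and their kind, only Hes6 was tested. Hes6, a relative of Hes1 known to oppose it, had 17.3, 28.4 and 17.2 FPKM in Zeb1Prx1, against 13.6, 16.04 and 10.8 FPKM in WT. Each Zeb1Prx1 library was higher, and the log2 change was 0.58 (SE 0.24; limma adjusted p = 0.328). Replicate 2 of Zeb1Prx1 held the highest value of this gene of 1808 bases, and the log2 change was 0.35 without that library and 0.35 with the length trend removed. Hes7, with 1 to 5 fragments in Zeb1Prx1 and 2 to 6 in WT, was next in level.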

How the data were processed

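RNA-seq libraries of cells sorted on the Prx1-lineage reporter, 3 per genotype, were analysed from the deposited FPKM. The authors computed these per gene on mm10 (submitters' processing notes), and gene lengths are those of the deposited table. Aligner, counter and strand setting: not given in the sources used here. So overlapping genes cannot be told apart; those that overlap a member had at most 14 fragments per library. Multiplying FPKM by length gave whole fragments for 127408 of 127408 values above 0 (relative tolerance 1e-06). Median-of-ratios factors of the FPKM were 1.01 in every library, as for values already scaled in that way.

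limma 3.58.1 (R 4.3.3) with an intensity trend compared Zeb1Prx1 with WT without a block on log2(FPKM + 1), which understates the change of low genes, for genes with at least 1 FPKM in at least 3 libraries. P-values were adjusted by Benjamini-Hochberg over all tested genes, with a threshold of 0.05. The fit was tested on simulated data, drawn with the same dispersion for every gene and no length trend between libraries. Such a run checks the code and cannot say how the fit behaves on these data. Shares were compared by exact permutation. Alternatives were a pseudocount of 0.1, no filter, other scalings, the replicate block, voom on fragments, library weights, a macrophage covariate, leaving out each library and, chosen after seeing the data, removal of the length trend by lowess.

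The members and lists were chosen with earlier results of these data known. Named were the 10 members, Zeb1, and of each pathway list the 2 genes of highest mean FPKM, the 1 with the smallest unadjusted p and any gene called; of marker lists, defining markers near 0 and the most abundant. The values of 1 gene that this rule names are not reported here.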

Additional observations from a re-analysis of the deposited data

How the results depend on the processing

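Over the alternatives run, Notch1, Notch2, Notch3, Jag1 and Lfng kept a log2 change below 0 (-1.51 to -0.66, -1.07 to -0.17, -1.34 to -0.61, -0.90 to -0.16 and -0.81 to -0.10). Hes1 was 0.69 with the macrophage covariate and -0.77 to 0.12 with 1 library left out. The median of the tested members was -0.58, and -0.76 to -0.48 with 1 library left out.

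No member was called, except 1 (Lfng) with library weights, and 4 had an unadjusted p under 0.05. That number was 1 with the replicate block, 2 with the macrophage covariate and 1 to 5 with 1 library left out (1 without Zeb1Prx1 replicate 3, WT replicate 2 or WT replicate 3). Over all genes, library weights called 268 higher and 179 lower, and leaving out 1 library called 0 to 1 higher. At an unadjusted p under 0.05, the 1022 higher genes became 614 after equalising the FPKM sum, 2014 under library weights and 661 to 1445 with 1 library left out. The 875 lower genes, of 12534 tested, became 1330 of the 27230 tested with no filter. They became 572 with the replicate block, 1852 with library weights and 450 to 1376 with 1 library left out. Voom on the fragments called 0 genes. An equal FPKM sum moved the median of all genes to -0.12, and that of the members was then -0.74. The cause of these moves was not tested.

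Same-numbered libraries of the 2 genotypes correlated at 0.03, -0.41 and 0.08 in their deviations, so the numbers were not taken to pair them.

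In the shares, the differences (Zeb1Prx1 minus WT) with 1 library left out ran from -0.41 to 1.20 percentage points for Notch4, -1.36 to 3.14 for Jag1, -3.14 to 1.36 for Jag2 and -1.45 to 3.31 for Mfng. They kept their sign for Notch1, Notch2, Notch3, Lfng and Rfng (-7.57 to -4.20, 8.22 to 9.67, -4.64 to -1.82, -11.3 to -7.70 and 4.39 to 11.6). Rfng was -0.012 on the log2 scale with an equal FPKM sum and -0.014 with the length trend removed, Rbpj 0.069 with library weights and 0.13 with the length trend removed, and Ncstn -0.24 to 0.0013 with 1 library left out. An equal FPKM sum gave 0.18 for Poglut1 and 0.21 for Dtx3, and the macrophage covariate 1.03 for Hes6 and -0.44 for Dtx4. Dlk2 dropped under the filter whenever a Zeb1Prx1 library was left out. Depth limits Heyl and Hey1, with at most 4 and 27 fragments per library.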
